A study of Homo sapiens with 8 samples.

Results

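The 10 genes described here are FOS, FOSB, FOSL1, FOSL2, JUN, JUNB, JUND, EGR1, ATF3 and IER2, the AP-1 subunits and well-known immediate early genes among the 60558 genes of the expression files. They were taken by gene name, and every one of them was found and passed the filter on low values, which kept 14206 genes. Each was above 1 FPKM in all 8 libraries. The cells were hIECs (human intestinal epithelial cells) differentiated in 2D from H9, a single established human embryonic stem cell line. The 8 libraries form 4 groups of 2. Normal hIECs received neither cytokines nor PM10. Inflamed hIECs received IFNγ and TNFα, each at 50 ng/ml, for 10 days from day 4 of differentiation. Normal and inflamed hIECs with PM10 (airborne particulate matter) received it at 100 μg/ml for the last 7 of these days. The labels list 10 days of treatment in every group. The differentiation medium of all groups held EGF at 100 ng/ml, valproic acid at 1 mM and Wnt-C59, a Wnt inhibitor, at 2 μM. Nothing in the records says that the libraries of a group came from separate cultures, so errors and p-values cover the spread between these libraries only.

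AP-1 is a pair of bZIP proteins, usually a FOS and a JUN family member, that binds DNA at the AP-1 site. Genes such as FOS, JUN, EGR1 and IER2 are called immediate early genes because growth factors, stress and cytokines switch them on within minutes through proteins that are already in the cell, and their transcripts and proteins are short-lived. SRF, bound at CArG boxes together with ELK1, carries much of the signal of the MAP kinase pathway to FOS and EGR1, and CREB family proteins bind the CRE. FOSL1 and FOSL2 lack the strong activation domain of FOS and accumulate later. MAP kinases act on these factors, and DUSP and Sprouty proteins restrain the kinases.

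Values are FPKM, a count of fragments divided by transcript length and by library size, so that levels can be set beside each other between genes. Differences are of group means on the log2(FPKM + 1) scale with their standard error (SE) from limma, where changes of low genes come out smaller than as ratios. A gene was called when limma's adjusted p-value was under 0.05. The 10 genes were chosen with these values in view, FOS and EGR1 above all, so their differences are a description and no p-value is given for them. In bulk RNA, fewer cells that express a gene and less RNA per cell cannot be told apart. Depth was not measured. If the lowest FPKM above 0 of a library stands for a mean depth of 1, an FPKM of 1 stands for 4.38 to 6.11 across the libraries. Mitochondrial genes took between 15.5% and 24.2% of the summed FPKM.

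The cell label was set against marker genes. Only 4 of 15 epithelial markers reached 1 FPKM in 2 libraries and 8 were listed at 0 in every library, CDX2, VIL1, KRT20, MUC2, LYZ, CHGA, CLDN3 and CLDN7. EPCAM was at most 0.622 FPKM and CDH1 was above 0 in 1 library. KRT8, at 185.1 to 383 FPKM, and KRT18, at 100.1 to 266, made up most of the summed epithelial signal, which ran from 600.6 to 654 FPKM without cytokines, from 352 to 358 in inflamed hIECs and from 295 to 313 in inflamed hIECs with PM10. LGR5, an intestinal stem cell marker of the same list, went the other way, from 2.01 to 2.63 FPKM without cytokines to 5.26 and 5.68 in inflamed hIECs and 7.92 and 8.28 with PM10 added. All 10 mesenchymal markers were present, with sums from 3691 to 4891 FPKM. The cells are called hIECs here as in the study. In the FPKM values the 8 markers named above were absent. By qPCR and immunostaining, the study reported CDX2, LYZ, MUC2, CHGA and VIL1 in its hIECs. It also reported lower LGR5 by qPCR in inflamed hIECs with PM10. The FPKM of LGR5 went the opposite way. Why the FPKM values and these assays differ was not tested.

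The promoters were read to show which of these genes carry the elements through which they are classically switched on. RefSeq transcription starts of GRCh38.p14 were found for 9 of the 10 genes, with 2 starts for ATF3. None was found for FOSL1, so its promoter was not searched. The 300 bases from 250 before to 50 after each start and the next 300 bases upstream were searched on both strands for the CArG box, the CRE (TGACGTCA), its core (TGACGT, which the CRE contains), the AP-1 site (TGACTCA) and the GAS element (TTCNNNGAA). Capitals mark the matches in the sequences that follow, which are the coding strand in GRCh38.
EGR1, the 250 bases before the start, chr5:138465229-138465478, plus strand: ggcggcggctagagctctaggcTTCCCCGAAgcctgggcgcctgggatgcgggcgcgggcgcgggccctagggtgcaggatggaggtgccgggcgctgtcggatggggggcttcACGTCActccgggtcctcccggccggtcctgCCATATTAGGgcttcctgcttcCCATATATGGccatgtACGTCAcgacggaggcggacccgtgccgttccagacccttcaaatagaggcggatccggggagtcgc
EGR1, 90 bases farther upstream, chr5:138465021-138465110, plus strand: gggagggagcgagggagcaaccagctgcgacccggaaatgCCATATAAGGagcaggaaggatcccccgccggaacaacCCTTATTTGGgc
FOS, 90 bases around its CArG box, chr14:75278474-75278563, plus strand: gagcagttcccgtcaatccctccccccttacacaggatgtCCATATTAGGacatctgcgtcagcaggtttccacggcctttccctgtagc
FOSB, 64 bases around its CArG box, chr19:45467682-45467745, plus strand: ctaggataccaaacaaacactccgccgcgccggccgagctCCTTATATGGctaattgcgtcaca

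EGR1 held 5 CArG boxes, at positions -105 and -83 and again at -418, -380 and -364 from the start. FOS held one at -314, and FOSB one at -274. Of 35116 promoters, 1.29% held a CArG box in the window around the start and 1.48% in the window upstream of it. No CArG box was in the 600 bases of FOSL2, JUN, JUNB, JUND, ATF3 or IER2. The core of the CRE lay close to the start in EGR1, FOS at -64, FOSB at -60, FOSL2 at -66 and JUND, against 7.98% of all promoters in that window. JUND held a whole CRE at -200, in a window where 1.85% of promoters had one, and farther upstream FOSB held one at -325 and the second start of ATF3 one at -497, where 0.396% did. That ATF3 window, chr1:212614468-212614767, lies inside the span of the gene, chr1:212565334-212620777. The bases just before this second start end in a pyrimidine-rich stretch and AG, as they do before an internal exon. Whether transcription starts there was not tested, so this CRE may not be a promoter element. For ATF3, matches and their absence hold for the listed starts only. EGR1 held the one GAS match, at -228, in a window where 7.66% of promoters had one, and FOSL2 the one AP-1 site, at 5. Such matches are letters and not tested binding sites.

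**Figure D1:**
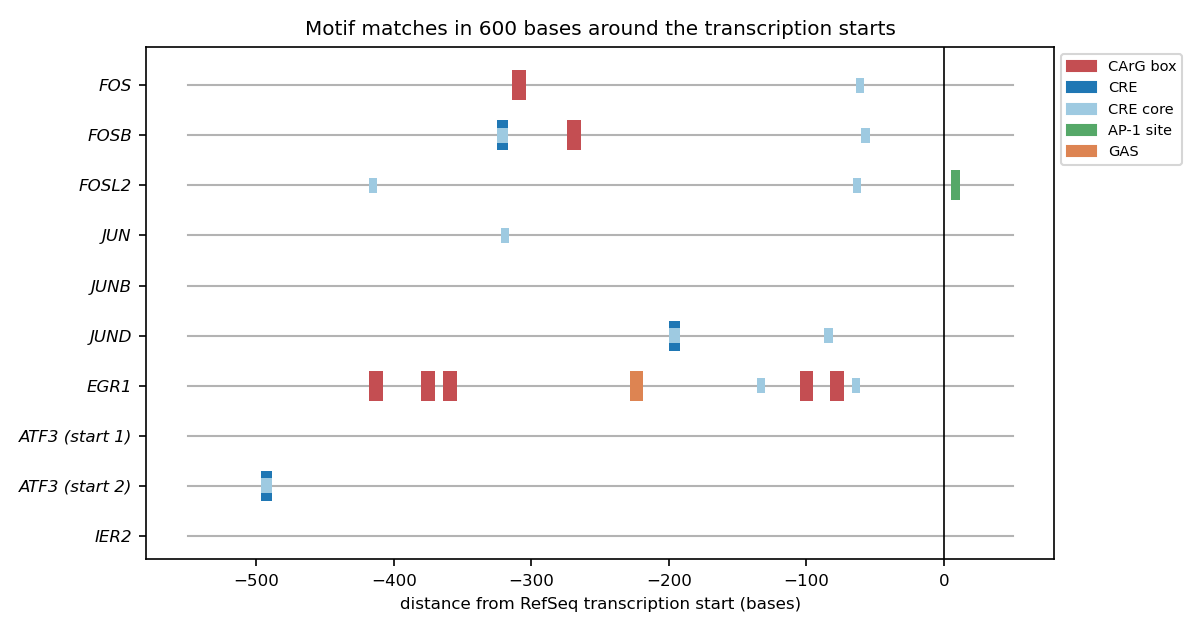
Matches to 5 motifs along the 600 bases around the RefSeq transcription starts of 9 genes, with distance from the start in bases on the x axis, 1 line per start and the start at 0. EGR1 carries 5 CArG boxes, and FOS and FOSB carry 1 each.

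FOS, the founding FOS family subunit, lies at chr14:75278826-75282230 on the plus strand. Its level was 16.8 and 21.2 FPKM in the normal libraries and 23.9 and 23.8 with PM10. It was 29.6 and 28.4 FPKM in the inflamed libraries and 4.999 and 4.73 FPKM in the inflamed libraries with PM10. The inflamed libraries were the highest and the inflamed libraries with PM10 the lowest, with no overlap between any neighbouring groups. The mean of inflamed hIECs with PM10 was 16.8% of that without PM10. FOS rose with cytokines by 0.60 (SE 0.098) and fell with PM10 in inflamed hIECs by 2.35 (SE 0.098), the second lowest of 14206 differences in that comparison. In normal hIECs the difference with PM10 was 0.32 (SE 0.098) and was not called. FOS overlaps no other annotated gene.

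EGR1, a zinc finger factor induced along with FOS, lies at chr5:138465479-138469303 on the plus strand. Its level was 80.3 and 95.8 FPKM in normal hIECs, 101.2 and 104.5 with PM10, 101.4 and 104.3 in inflamed hIECs, and 40.2 and 42.1 with cytokines and PM10 together. The last group lay apart from the other 3, all of whose libraries were between 80.3 and 104.5 FPKM. In inflamed hIECs it fell with PM10 by 1.30 (SE 0.080), at rank 31 from the lowest of 14206 differences. With cytokines alone it was 0.23 (SE 0.080) higher, which was called, but in only 4 of 16 alternative settings. PM10 in normal hIECs gave 0.23 (SE 0.080), not called.

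FOSL1, also known as FRA-1, lies at chr11:65892049-65900573 on the minus strand. With PM10 in inflamed hIECs it moved the opposite way from FOS. Its level was 1.14 and 1.64 FPKM in normal hIECs and 2.15 and 1.51 with PM10, and these 2 groups overlapped. It was 6.75 and 8.03 FPKM in inflamed hIECs, and 19.0 and 19.1 FPKM with cytokines and PM10 together. FOSL1 rose with cytokines by 1.81 (SE 0.142) and rose further with PM10 in inflamed hIECs by 1.26 (SE 0.142), at rank 24 from the highest. The mean in inflamed hIECs with PM10 was 2.58-fold that without PM10 and 10.4-fold that with PM10 alone.

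FOSL2, also known as FRA-2, lies at chr2:28392448-28417317 on the plus strand. It was between 2.48 and 3.47 FPKM in the 4 libraries without cytokines and between 6.36 and 7.35 FPKM in the 4 libraries with them. It rose with cytokines by 1.03 (SE 0.078) without PM10 and by 0.96 (SE 0.078) with PM10. Its differences with PM10 were 0.23 (SE 0.078) in normal and 0.16 (SE 0.078) in inflamed hIECs, neither called.

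FOSB lies at chr19:45467995-45475179 on the plus strand, and overlaps the span of ERCC1 without a shared exon. Its normal libraries were far apart, at 3.32 and 9.10 FPKM. It was 2.33 and 2.12 FPKM with PM10 alone, 4.88 and 4.73 in inflamed hIECs, and 2.80 and 2.70 with cytokines and PM10 together. Its level was thus lower with PM10 in both states, by 1.04 (SE 0.326) in normal and 0.63 (SE 0.326) in inflamed hIECs, but none of its 5 comparisons was called. The normal library with 9.10 FPKM of FOSB also had the higher level of 7 of the 10 genes within its group and the highest mitochondrial share, 24.2% against 17.02% in the other normal library. The part of this in the result was not tested.

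**Figure D2:**
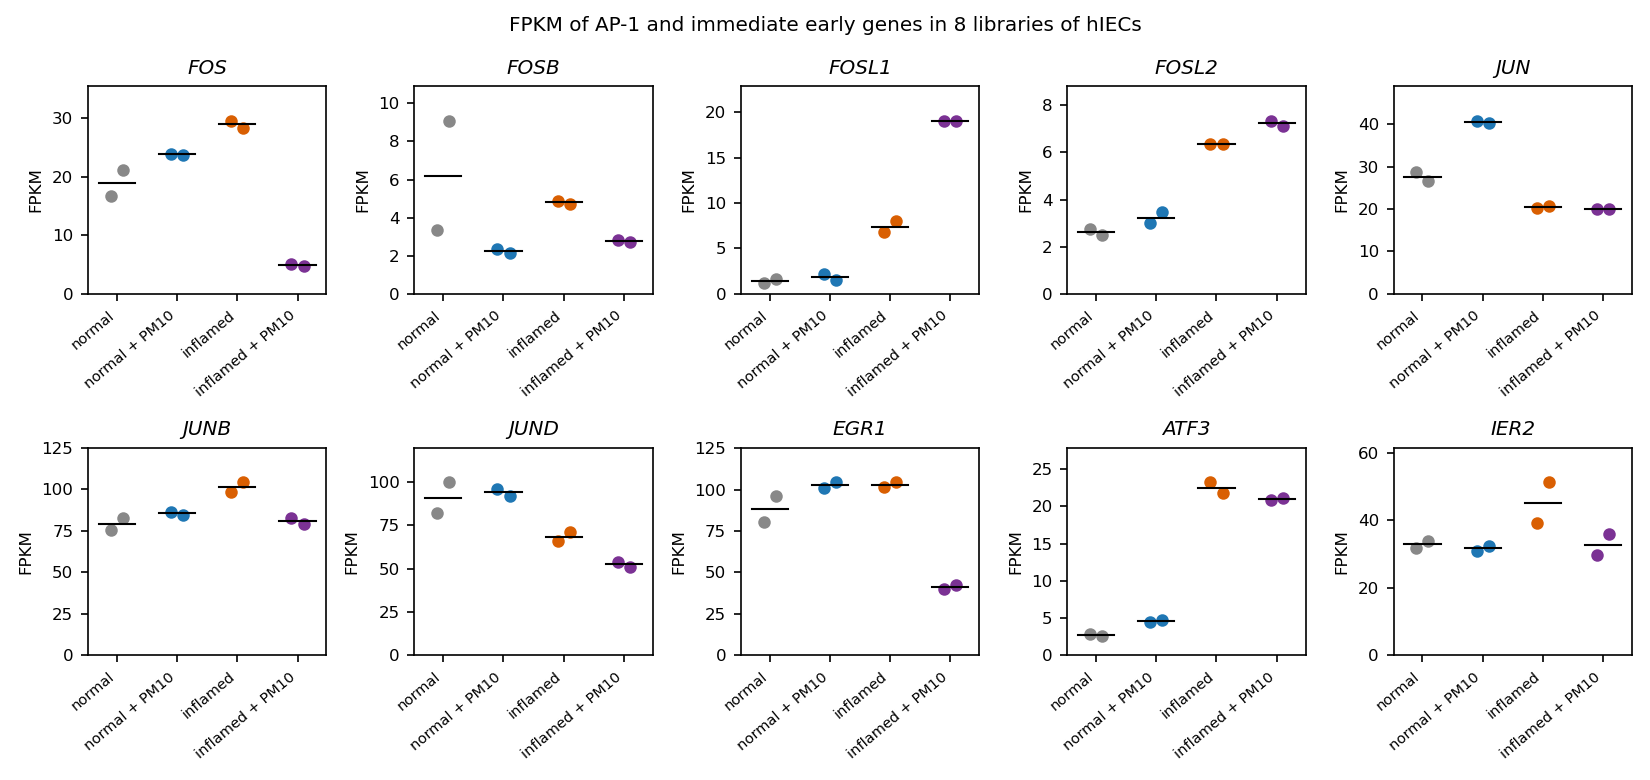
FPKM of each of the 10 genes in the 8 libraries, with 1 panel per gene, a linear y axis from 0, 1 point per library and a line at the group mean. FOS and EGR1 are lowest in inflamed hIECs with PM10, at 4.73 to 4.999 and 40.2 to 42.1 FPKM, where FOSL1 is highest, at 19.0 and 19.1 FPKM.

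The composition of the FOS family differed between the groups. The summed level of FOS, FOSB, FOSL1 and FOSL2 was 29.2 ± 7.37 FPKM (SD, n = 2) in normal hIECs, 31.1 ± 0.342 with PM10, 47.5 ± 0.0723 with cytokines, and 33.9 ± 0.377 with both. FOS made up 65.8% ± 5.95 of this sum in normal hIECs, 76.6% ± 0.591 with PM10, 61.0% ± 1.76 with cytokines, and 14.4% ± 0.401 with both. The share of FOSL1 was 4.77% in normal hIECs, 5.87% ± 1.38 with PM10, 15.5% ± 1.92 with cytokines, and 56.2% ± 0.738 with both. The ratio of FOS to FOSL1 was between 11.1 and 15.7 in the 4 libraries without cytokines and was 4.39 and 3.53 in the inflamed libraries. In the inflamed libraries with PM10 the order turned, and FOSL1 was 3.80 and 4.03 times the level of FOS.

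The JUN family was more even. JUN, the classical partner of FOS at chr1:58776845-58784048 on the minus strand, was 28.7 and 26.6 FPKM in normal hIECs, 40.8 and 40.4 with PM10, 20.2 and 20.8 in inflamed hIECs, and 19.99 and 19.9 with cytokines and PM10 together. The normal libraries with PM10 were the highest, and all 4 libraries with cytokines lay below all 4 without them. JUN rose with PM10 in normal hIECs by 0.54 (SE 0.053) and fell with cytokines by 0.42 (SE 0.053), while PM10 in inflamed hIECs gave -0.036 (SE 0.053), not called.

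JUNB, which can oppose JUN at some promoters, lies at chr19:12791486-12793315 on the plus strand. It was 75.3 and 82.4 FPKM in normal hIECs, 86.4 and 84.5 with PM10, 98.2 and 104.3 in inflamed hIECs, and 82.6 and 79.0 with cytokines and PM10 together. JUNB rose with cytokines by 0.36 (SE 0.060) and fell with PM10 in inflamed hIECs by 0.32 (SE 0.060), a call that was lost when any one of the 4 libraries compared was left out. An exon of HOOK2, at most 6.798 FPKM, overlaps it on the other strand, and without strand information their reads cannot be told apart.

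JUND, the JUN gene with the most constant expression in many tissues, lies at chr19:18279694-18281622 on the minus strand. It was 82.2 and 100.1 FPKM in normal hIECs and 96.4 and 92.3 with PM10, and these groups overlapped. It was 65.8 and 71.3 FPKM in inflamed hIECs, and 54.1 and 50.8 with cytokines and PM10 together. JUND fell with cytokines by 0.40 (SE 0.093) and with PM10 in inflamed hIECs by 0.38 (SE 0.093), and the second call held in 8 of 16 alternative settings. The first was lost without inflamed library 1, and its value was -0.26 without normal library 2. Of the summed JUN family, JUND made up 46.0% ± 2.62 in normal and 36.0% ± 0.415 in inflamed hIECs, and JUNB 39.9% ± 0.723 and 53.2% ± 0.151. With PM10 in inflamed hIECs these shares were 34.2% ± 0.398 and 52.8% ± 0.0244, so that no exchange like that of FOS and FOSL1 was measured.

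**Figure D3:**
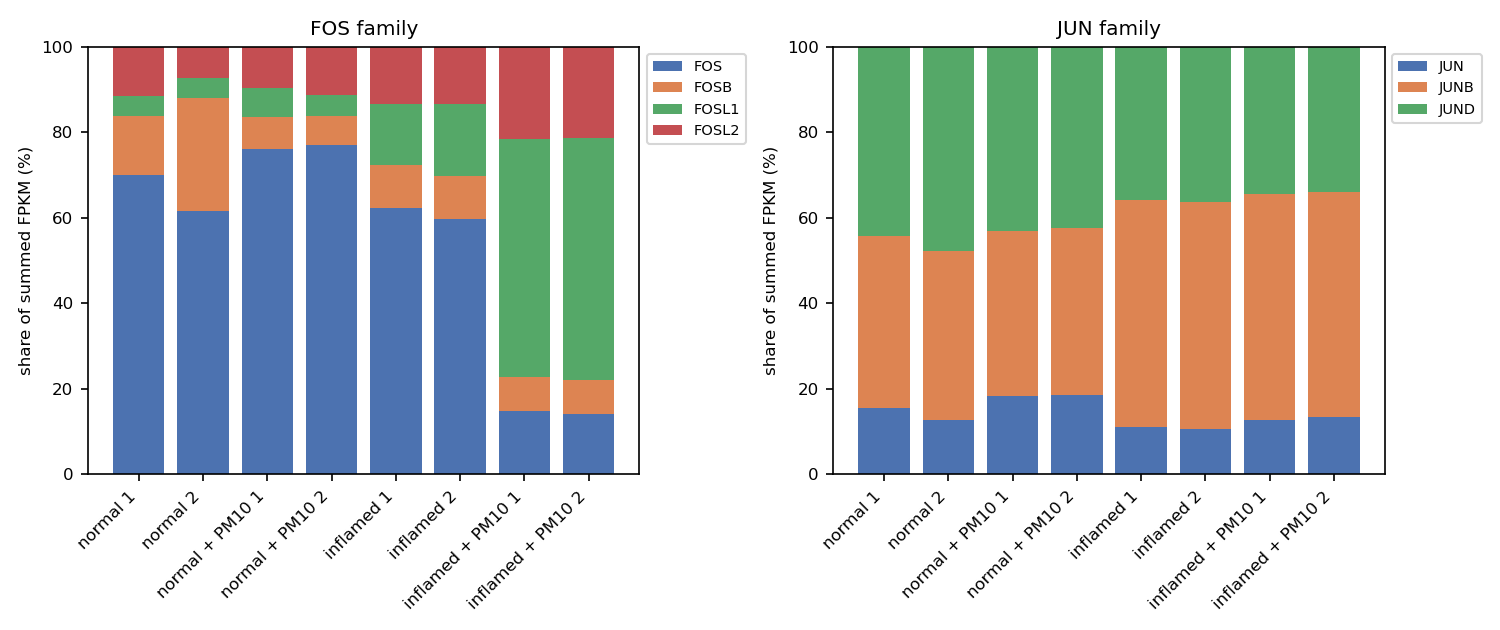
Share of each gene in the summed FPKM of the FOS family (left) and of the JUN family (right), in percent on the y axis, with 1 stacked bar per library. FOS makes up 61.0% of the FOS family in inflamed hIECs, and 14.4% with cytokines and PM10 together, where FOSL1 makes up 56.2%.

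ATF3, a bZIP repressor of stress responses at chr1:212565334-212620777 on the plus strand, followed the cytokines. It was 2.84 and 2.51 FPKM in normal hIECs, 4.41 and 4.72 with PM10, 23.3 and 21.7 in inflamed hIECs, and 20.9 and 21.1 with cytokines and PM10 together. The libraries with cytokines all lay above those without. ATF3 rose with cytokines by 2.68 (SE 0.069), the largest rise of the 10 genes in that comparison and an 8.41-fold ratio of means. It rose with PM10 in normal hIECs by 0.60 (SE 0.069), and PM10 in inflamed hIECs gave -0.095 (SE 0.069), not called.

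IER2, an early response gene without a bZIP domain at chr19:13150411-13154911 on the plus strand, was 31.9 and 33.9 FPKM in normal hIECs and 31.0 and 32.5 with PM10. It was 39.1 and 51.3 FPKM in inflamed hIECs, and 29.7 and 35.9 with cytokines and PM10 together, the pairs of libraries farthest apart for this gene. IER2 rose with cytokines by 0.44 (SE 0.132), a call lost without either normal library or without inflamed library 2, where it was 0.25. The difference with PM10 in inflamed hIECs was -0.45 (SE 0.132) and was not called. Exons of 2 antisense RNAs overlap IER2, the higher at 4.15 FPKM at most.

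Counted over the comparisons, 2 of the 10 genes were called with PM10 in normal hIECs, ATF3 and JUN, both higher, where 9.23% of all genes were called, 5.51% higher and 3.72% lower. Cytokines without PM10 called 9 of 10, with 7 higher and JUN and JUND lower, against 56.2% of all genes, 25.9% higher and 30.3% lower. PM10 in inflamed hIECs called 5, with FOSL1 higher and FOS, EGR1, JUND and JUNB lower, against 15.2%, 6.22% higher and 9.02% lower. Cytokines with PM10 called 7, with FOSL1, ATF3 and FOSL2 higher by 2.83, 1.98 and 0.96, and FOS, EGR1, JUN and JUND lower, against 65.4%, 25.8% higher and 39.6% lower. These comparisons share libraries, and since the genes were chosen from them nothing is read from the counts. The median difference of the 10 genes was -0.35 for PM10 in inflamed hIECs, beside -0.0061 over all genes, and 0.23 for PM10 in normal hIECs, beside 0.059.

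The 5 calls of PM10 in inflamed hIECs became 3 without inflamed library 2 and 3 without either inflamed library with PM10, and FOS, EGR1 and FOSL1 were called in all 16 settings. The 2 calls of PM10 in normal hIECs became 5 without normal library 2, and 0 when only these 2 groups were in the fit.

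**Figure D4:**
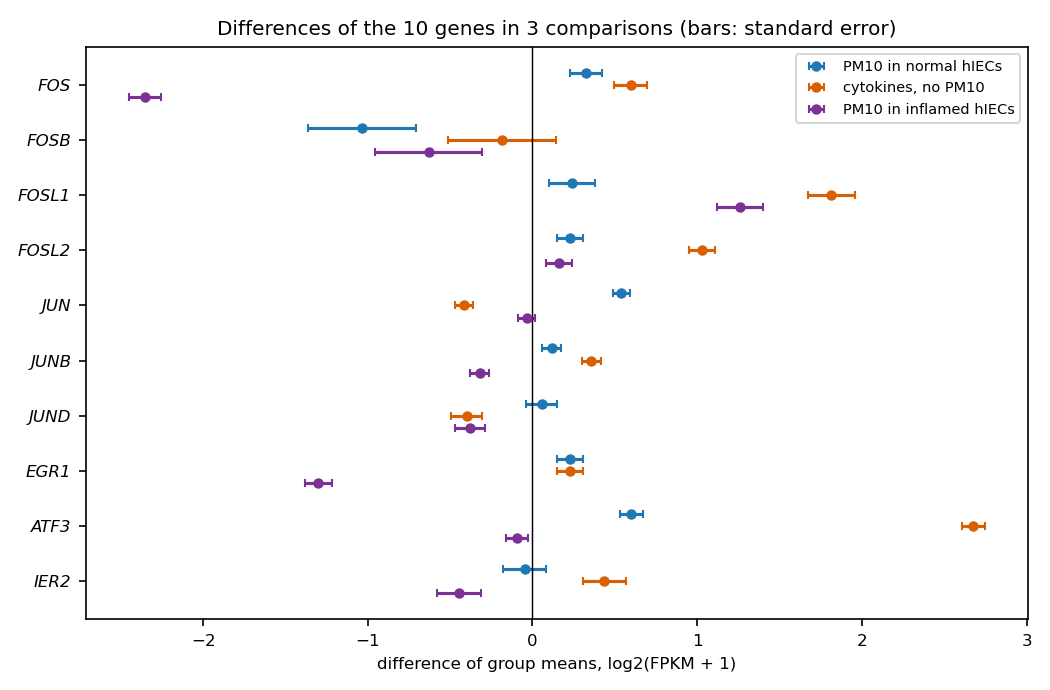
Differences of group means of the 10 genes on the log2(FPKM + 1) scale (x axis) for PM10 in normal hIECs, cytokines without PM10 and PM10 in inflamed hIECs, as points with bars of 1 standard error. FOS at -2.35 and EGR1 at -1.30 lie far to the left with PM10 in inflamed hIECs, and FOSL1 at 1.26 to the right.

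The interaction of PM10 and cytokines is the PM10 difference in inflamed minus that in normal hIECs. The genes were chosen with this difference in view, so its values and calls are a description. The interaction was called for 6 of the 10 genes, beside 6.6% of all genes, 2.11% higher and 4.48% lower. It was -2.68 (SE 0.139) for FOS, -1.53 (SE 0.113) for EGR1, -0.69 (SE 0.098) for ATF3, -0.58 (SE 0.075) for JUN, -0.44 (SE 0.084) for JUNB and 1.02 (SE 0.200) for FOSL1. For FOS, EGR1 and JUN the call held in all 15 settings, and for JUNB and FOSL1 in 7. Without inflamed library 1, or without library 1 of inflamed hIECs with PM10, 3 of the 6 calls were left. ATF3 and JUN were called with PM10 in normal hIECs and not in inflamed hIECs.

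Genes known from textbooks to carry AP-1 sites were then followed, in a list written with earlier results of these data known. Of its 15 genes, 14 were tested and MMP3 was listed at 0 throughout. PM10 in inflamed hIECs called 13 of 14, with 10 higher and 3 lower and a median of 0.58, beside 15.2% and a median of -0.0061 over all genes. Leaving out single libraries gave 10 to 13 calls. CXCL8, a neutrophil chemokine, rose from 1.04 and 0.834 to 4.83 and 4.46 FPKM, by 1.54 (SE 0.121). MMP1, an interstitial collagenase, rose from 2.54 and 2.89 to 6.77 and 7.72 FPKM, by 1.15 (SE 0.109). MMP10, a stromelysin, rose by 0.81 and HBEGF, an EGF receptor ligand, by 0.73. The plasminogen activator gene PLAU and its receptor gene PLAUR rose by 0.71 and 0.26, the hyaluronan receptor gene CD44 by 0.66 and cyclin D1 (CCND1) by 0.60.

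The 3 genes of the list that fell were IL6, TIMP1 and VIM. IL6, an acute-phase cytokine, fell from 26.4 and 21.3 to 6.45 and 6.51 FPKM, by 1.72 (SE 0.132). TIMP1, an inhibitor of matrix metalloproteinases, fell by 0.55 and vimentin (VIM) by 0.23. TGFB1 was not called, at 0.056 (SE 0.058). IL6 and MMP1 thus moved apart with PM10 in inflamed hIECs. Inflamed hIECs had 11 genes of the list higher and 1 lower than normal hIECs, beside 25.9% and 30.3% of all genes, led by MMP9 at 4.88 and IL6 at 3.67, and CXCL8 was listed at 0 in both normal libraries, so no fold is given for it.

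Over all genes PM10 in normal hIECs called 9.23%, with 5.51% higher and 3.72% lower. Of the 14 genes 7 were called, 2 higher, MMP9 by 0.76 and MMP1 by 0.70, and 5 lower, including IL6, HBEGF, VIM and PLAUR. This count was 2 without either normal library with PM10, 4 without either inflamed library with PM10 and 1 with only these 2 groups in the fit. The interaction was -1.17 (SE 0.187) for IL6 and -0.38 (SE 0.074) for MMP9, the 2 genes called lower. It was called higher for 8, among them CXCL8 at 1.41 (SE 0.171) and HBEGF at 1.14 (SE 0.107). In all it was called for 10 genes of the list, against 6.6% of all genes. Between 4 and 6 of these calls were left without either normal library with PM10, either inflamed library, or library 1 of inflamed hIECs with PM10. Vimentin is also a mesenchymal marker, and the summed mesenchymal markers ran from 4827 to 4891 FPKM in inflamed hIECs and from 4293 to 4299 with PM10 added. The part of this in the result was not tested.

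**Figure D5:**
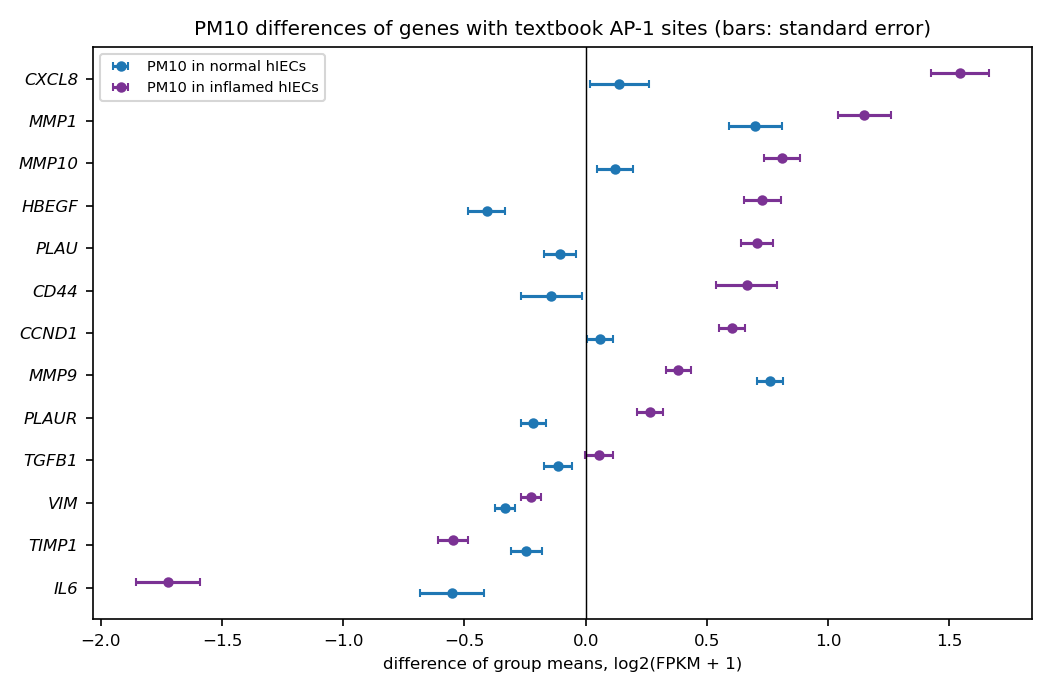
Differences with PM10 on the log2(FPKM + 1) scale (x axis) for 13 of the 14 tested genes with textbook AP-1 sites in normal and in inflamed hIECs, as points with bars of 1 standard error. In inflamed hIECs 9 of the genes drawn lie above 0 with a call, from CXCL8 at 1.54 to PLAUR at 0.26, and IL6 lies lowest at -1.72.

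Of 28 other immediate early and early response genes, 23 were tested. With PM10 in inflamed hIECs 6 were called higher and 6 lower, beside 6.22% and 9.02% of all genes, with a median of 0.0088 beside -0.0061. EGR3 and EGR2, the relatives of EGR1, fell by 0.76 (SE 0.085) and 0.39 (SE 0.061), and both were called. EGR3 was 1.13 and 1.21 FPKM in inflamed hIECs and 0.322 and 0.245 with PM10. The mRNA decay factor ZFP36 fell by 0.65 and IER5L by 0.66, while MYC rose by 0.43 and the matricellular gene CCN1, an SRF and YAP target, by 0.26. EGR3, ZFP36 and IER5L were also lower with cytokines alone, by 0.84, 0.94 and 0.33. In that comparison EGR2 was not called and CCN1 was higher by 1.16. The orphan receptor gene NR4A1, lower with cytokines alone by 1.40, was 0.543 and 0.650 FPKM in inflamed hIECs. With PM10 added it was listed at 0 in both libraries, a difference of -0.67 (SE 0.191) that was not called. The 12 calls became 2 without either inflamed library, 2 without library 2 of inflamed hIECs with PM10 and 3 without its library 1.

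In normal hIECs PM10 called 9 of these 23 genes, beside 9.23% of all genes, with 8 higher and 1, CCN2, lower by 0.55. ZFP36L1, GADD45B, IER5 and EGR2 were among the 8, at 0.32, 0.38, 0.33 and 0.27. This count was 0 with only these 2 groups in the fit and lay between 0 and 9 when libraries were left out, with 0 and 1 without either normal library with PM10, 5 without normal library 2, and 3 without any one of the 4 libraries with cytokines. The interaction called 6 genes, beside 6.6% of all genes, all 6 lower, EGR2, EGR3, IER5, IER5L, KLF10 and ZFP36L1, from -0.36 to -0.94. It called 10 without normal library 2, 3 without library 1 of inflamed hIECs with PM10, and 2 without any one of the normal libraries with PM10, the inflamed libraries or library 2 of inflamed hIECs with PM10.

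Upstream of the 10 genes stand the kinases and SRF, measured here as mRNA. Of 19 tested genes of the MAP kinases, SRF and its partners, 1 was called in inflamed hIECs, MAPK14 (p38α) at 0.24, beside 15.2% of all genes. In normal hIECs 3 were called, beside 9.23%, among them MAPK14 and SRF at 0.30 and 0.25. SRF was 9.55 and 9.82 FPKM in normal hIECs and 17.4 and 17.1 in inflamed hIECs, a rise of 0.77 (SE 0.055). ELK1, its ETS partner, fell with cytokines by 0.36. With PM10 in inflamed hIECs SRF was 20.07 and 19.7 FPKM, a difference of 0.19 that was not called (adjusted p = 0.056 by limma).

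Among 14 feedback inhibitors, PM10 in inflamed hIECs called 3 higher and 3 lower, beside 6.22% and 9.02% of all genes. DUSP2, a nuclear MAP kinase phosphatase, was 3.15 and 3.02 FPKM and fell to 0.777 and 1.03 FPKM, by 1.10 (SE 0.103). DUSP1, itself an immediate early gene, fell by 0.51 in inflamed and by 0.60 in normal hIECs, and SPRY2 fell by 0.43 in inflamed hIECs. DUSP4, DUSP10 and DUSP7 rose by 0.68, 0.39 and 0.25. Cytokines without PM10 called 10 of the 14, with 4 higher and 6 lower, beside 25.9% and 30.3% of all genes. DUSP2 and DUSP4 were among the 6, lower by 1.48 and 0.67. The mean of DUSP4 was 2.50 FPKM in normal hIECs and 2.53 with cytokines and PM10 together.

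Of 12 tested bZIP factors related to AP-1, cytokines without PM10 called 6, beside 56.2% of all genes. BATF2, induced by interferon, was listed at 0 in 3 of the 4 libraries without cytokines and was 16.8 and 16.03 FPKM in inflamed hIECs. BATF3 rose with cytokines by 1.5 and MAFF by 1.04. With PM10 in inflamed hIECs 2 of 12 were called, beside 15.2% of all genes, JDP2, a repressor of AP-1, lower by 1.26 (SE 0.279), and MAFG higher by 0.39. PM10 in normal hIECs also called 2, beside 9.23%, MAF and MAFG, higher by 0.66 and 0.37, and the interaction was -0.85 (SE 0.076) for MAF. Of 9 heat shock genes, a sign of general stress and of handling, 3 were called with PM10 in inflamed hIECs, beside 15.2% of all genes. These were HSPA8, HSPB1 and DNAJB1, higher by 0.38, 0.24 and 0.22. With PM10 in normal hIECs 0 of the 9 were called, but their median was 0.23, against 0.22 in inflamed hIECs. Cytokines without PM10 called 3 higher, among them HSPA8 by 0.47, and 3 lower, among them HSPA1A by 0.65. Of all genes 25.9% and 30.3% were called higher and lower there.

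Markers that moved with the groups are given beside these results. All 5 proliferation markers were called higher in both cytokine comparisons, beside 25.9% of all genes without PM10 and 25.8% with it. With PM10 in normal hIECs, where 3.72% of all genes were called lower, all 5 markers were called lower. Their sum was 57.5 and 57.8 FPKM in normal hIECs, 35.2 and 36.9 with PM10, 91.4 and 99.3 in inflamed hIECs, and 80.07 and 82.1 with cytokines and PM10 together. Neuronal markers, 6 of 8 of them tested, summed to between 199.98 and 227 FPKM without cytokines and between 119 and 137 with them. Cytokines without PM10 called 1 of the 6 higher and 4 lower, beside 25.9% and 30.3% of all genes. SYP went against the sum, at 1.65 to 2.17 FPKM without cytokines and 2.58 to 5.01 with them. Endothelial and immune markers, 4 genes each, summed to at most 0.486 and 1.83 FPKM. The part of these cells in the levels of the 10 genes was not tested.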

How the data were processed

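RNA-seq was analysed for 8 libraries of hIECs from H9, with 2 in each of 4 groups. The values the authors deposited are FPKM, 1 per gene and library, made from reads of 100 bases at both ends with Cutadapt, HISAT2 (hg38) and StringTie, and neither the annotation release nor a scaling between libraries is given in the sources used here. FPKM holds no read counts, so no count test was run.

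The 10 genes and all lists were chosen with earlier results of these data known. Values were taken as log2(FPKM + 1), and genes were kept where 2 or more libraries reached 1 FPKM, which left 14206. One limma-trend model (limma 3.58.1 in R 4.3.3) held the 4 group means of the 8 libraries. p-values were Benjamini-Hochberg adjusted over all genes within each of 5 comparisons, with a threshold of 0.05. With 2 libraries against 2, an exact permutation test cannot go below 0.333. The same model was also run on simulated data with 200 genes changed in inflamed hIECs with PM10 only. Those data held no cytokine difference, and the outcome is not reported here. Beside the 10 genes, the genes named are up to 4 of each list with the largest called differences with PM10 in inflamed hIECs and with cytokines and up to 2 with PM10 in normal hIECs, a few signaling genes fixed by name, and the 5 genes nearest to FOS (those nearest to JUNB, also in the rule, are left out because the filter on range removes genes as even as JUNB). Other list members named were chosen after their values were seen. Positions and overlaps come from GENCODE 44, where 99.5% of identifiers matched, and promoter starts from RefSeq (GRCh38.p14). Alternatives covered the pseudocount, the filter on low values, scaling, a fit without trend or with fewer groups, the replicate number and each library left out. Those for the lists were added after the data were seen. Tables and plots used Python 3.11.15, pandas 2.3.3 and matplotlib 3.10.9. The 3D organoids and other assays of the study were not analysed here. Some genes of the lists, including some that the naming rule above picked, are counted but not reported by name here.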

Additional observations from a re-analysis of the deposited data

Results flagged for a closer look

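The response to PM10 differed between normal and inflamed hIECs by limma's interaction term for 6 of the 10 genes, beside 6.6% of all genes. These calls are what brought the 6 genes here, and those for JUNB and FOSL1 held in only 7 of 15 alternative settings. The PM10 difference in inflamed minus that in normal hIECs was -2.68 for FOS, -1.53 for EGR1, -0.69 for ATF3, -0.58 for JUN, -0.44 for JUNB and 1.02 for FOSL1 on the log2(FPKM + 1) scale. The genes were chosen from these data, so this is a description. Groups of 2 libraries are too small to ask whether a single library stood apart.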

How the results depend on the processing

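Of 50 values of the 10 genes, 29 were called, and 19 of these were called in every alternative. No called value changed sign. With libraries left out in turn, the number of the 10 genes called ran from 2 to 5 for PM10 in normal hIECs, 3 to 6 for PM10 in inflamed hIECs, 7 to 9 for cytokines without PM10, 7 to 8 for cytokines with PM10 and 3 to 7 for the interaction. When the fit held just the 2 groups of interest, 0 of the 10 genes were called for PM10 in normal hIECs instead of 2. The same change left 1 of the genes with AP-1 sites instead of 7 and 0 of the other immediate early genes instead of 9 for that comparison, and these 9 became 5 with no filter on low values. With libraries left out, calls among the genes with AP-1 sites ran from 2 to 8 for PM10 in normal hIECs, 10 to 13 in inflamed hIECs, 12 to 13 for cytokines and 4 to 10 for the interaction. Those among the other immediate early genes ran from 0 to 9, 2 to 14, 17 to 20 and 2 to 10. Leaving out 1 of 2 libraries assumes that the lone library varies like the other groups. Counts of the remaining lists were made in the main setting alone.

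Replicate numbers are shared between groups by label only, and deviations of libraries with the same number correlated between -0.0015 and 0.079 over 14206 genes, so the numbers were not taken as pairs. With the replicate block, the other immediate early genes called for PM10 in normal hIECs were 5 instead of 9, and IER2 was called for PM10 in inflamed hIECs. The median of all genes was -0.109 for cytokines with PM10, and -0.059 and -0.022 after median centring and quantile normalization. FPKM limits what can be said of genes near 0, since the lowest value above 0 was 0.164 to 0.228 FPKM across the libraries.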

Other observations

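Over the 8 libraries, 3507 genes with a range of at least 1 on the log2(FPKM + 1) scale were ordered by the root mean square difference of their centred values from those of FOS. The nearest were BEST1 at 0.363, HSPD1P6 at 0.363, EGR1 at 0.391, LY6G5B at 0.450 and MIR503HG at 0.466. BEST1 overlaps FTH1 and HSPD1P6 is a pseudogene of HSPD1, so both values are uncertain. MIR503HG, the host RNA of a miRNA cluster, was 15.7 FPKM in inflamed hIECs and 6.87 with PM10 as group means. JUNB ranged over 0.465 on this scale, less than the range of 1 asked of the genes compared, so no genes are named as nearest to it. All libraries of a group share their treatment, so this is a description of 4 group levels more than of 8 libraries.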
